A study of Mus musculus with 13 samples.

Results

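Between 8 h and 24 h of A-485, mouse MLL-AF10 leukemia stem cells lost transcripts of the DNA replication and mitosis machinery. Of 316 cell cycle genes tested 218 fell, beside 12.0% of all genes tested. A fit on the 4 libraries of the contrast alone called 104 of them lower. Of the 218, 23 had been called lower by 8 h, and 131 met the definition of a later fall given below. Over the same interval, integrin, cytokine receptor and hematopoietic transcription factor genes, many of them called lower by 8 h, rose in part. The comparison set the 2 libraries taken at 24 h against the 2 libraries taken at 8 h, chosen by their labels alone, which is 4 of the 13 libraries of the series. All genes were compared, and no untreated library entered the contrast.

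The cells were murine leukemia cells carrying the MLL-AF10 fusion gene, labelled as leukemia stem cells with bone marrow as the source and tumor as the disease state. They were kept in RPMI medium with fetal bovine serum, WEHI-conditioned medium and penicillin-streptomycin. A-485 inhibits the acetyltransferase activity of p300 and CBP, at a dose that the labels do not state. The 8 h and 24 h groups had A-485 for those times, the 0 h libraries given beside them (called untreated below) are labelled with no time in A-485, and no vehicle control is named. Each time had 2 libraries, which the labels do not describe as separate cultures or clones, so the p-values measure the spread between these libraries and that spread may be technical. In bulk RNA, fewer cells of a type and less RNA per cell cannot be told apart.

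p300 and CBP acetylate histones at enhancers and promoters and act as co-activators for many transcription factors of blood cells. A dividing cell passes from G1 into S phase when E2F factors, released from pocket proteins such as RB by cyclin-dependent kinases (CDKs), switch on the genes for DNA replication. It then passes through G2 into mitosis on genes driven by MYBL2, FOXM1 and the MuvB complex. When a cell leaves the cycle, E2F and MuvB repressor complexes keep both gene groups off, and CDK inhibitors such as p21 and p27 hold the kinases inactive.

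The 4 libraries held 8189329 to 9025288 counts each, so depth differed little between them. Levels are counts scaled to a common library size with TMM factors (CPM), given for replicate 1 and then replicate 2. Replicate 2 stood apart from replicate 1 at both times. Wnt2, a secreted growth factor gene, was at 0.806 and 67.1 CPM at 8 h and 0.540 and 69.2 CPM at 24 h. Susd5 and Foxc1 were also higher in replicate 2. Elane went the other way, at 110 and 10.3 CPM at 8 h and 24.7 and 0.356 CPM at 24 h. The log2 difference between the 2 libraries of a time had an SD over genes of 0.656 at 8 h and 0.693 at 24 h, against 0.452 to 0.557 at the other times. Hoxa9 and Meis1, which MLL fusions keep active, were present in all 4 libraries, as was Ptprc (CD45), the general leukocyte marker. The progenitor markers Kit and Cd34 differed in direction. Kit was at 8.17 and 5.93 CPM at 8 h and 2.48 and 0.949 CPM at 24 h. Cd34 was at 119 and 112 CPM at 8 h and 193 and 161 CPM at 24 h. Of the markers of other cell types, 0 of 12 for B cells, 1 of 16 for T and NK cells and 1 of 14 for stroma and endothelium had enough counts to be tested.

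At 24 h, 1082 of 11119 genes tested were called higher than at 8 h (9.73%) and 1332 were called lower (12.0%), at an adjusted p under 0.05 in edgeR's quasi-likelihood test. In each of these 2414 genes both libraries of one time lay beyond both of the other. The call itself makes this likely with 2 libraries per time, so it is no further support. The median log2 change over all genes tested was 0.003. Without replicate 2 at 8 h the counts were 656 and 838, and without replicate 1 at 24 h they were 684 and 853. A fit on these 4 libraries alone, with 2 residual degrees of freedom, called 184 higher and 325 lower. It is named the 4-library fit below, where its counts are given beside the gene lists because most of them fell by more than 1.5 times in it.

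To find what changed after the first 8 h, each gene also had its change from 0 h to 8 h tested, and the difference between the 2 steps. These tests share the 8 h libraries with the main contrast and are given only side by side. By 8 h, 1987 genes (17.9%) had been called higher than at 0 h and 2337 (21.0%) lower. This split rests on the scaling: with library sizes alone it was 4078 and 1520, since that moved the median log2 change of the first step by 0.31, whereas it left the later step at 1063 and 1347 genes. A gene was counted as changed after the first 8 h when it was called from 8 h to 24 h, was not called from 0 h to 8 h, and had a called difference of the steps in the same direction. By this definition 148 genes rose (1.33% of those tested) and 398 fell (3.58%) after the first 8 h. Both numbers depend on the 8 h libraries: without replicate 2 at 8 h they were 43 and 126, and without replicate 1 at 8 h they were 85 and 244. A gene not called at 8 h may still have changed by then, and the second step was the longer one.

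**Figure D1:**
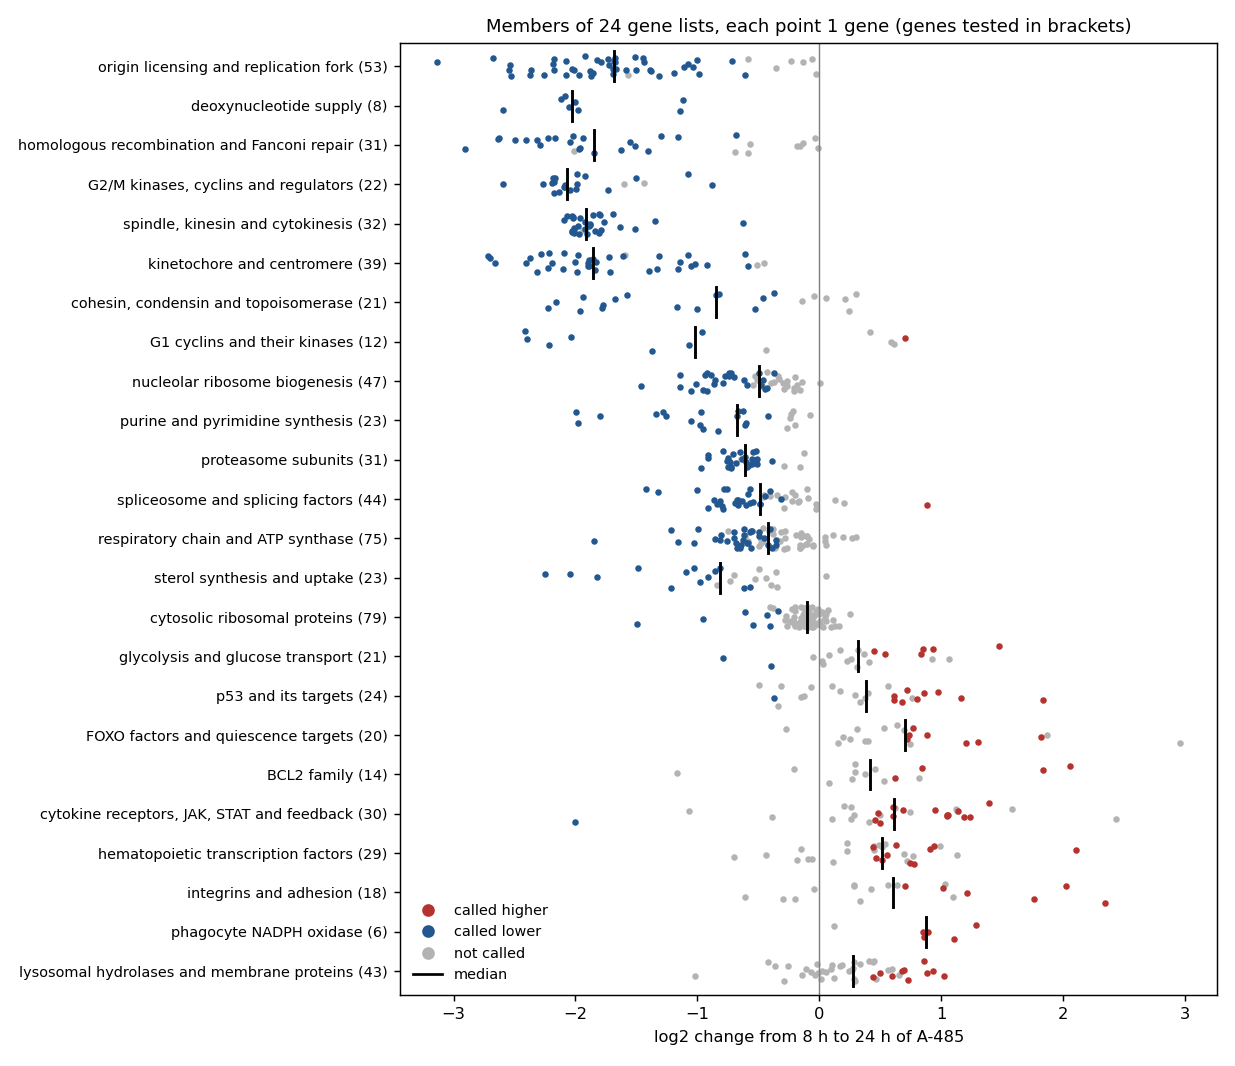
Log2 change from 8 h to 24 h (x axis) of every tested member of 24 gene lists (y axis, with the number of genes), red where called higher, blue where called lower and grey where not called, with the list median as a black bar. The medians of the replication, repair, deoxynucleotide, G2/M, spindle and kinetochore lists lie between -1.68 and -2.07, against -0.61 for the proteasome and 0.60 for integrins.

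Cell cycle genes made up a large block of the falls. Over 13 cell cycle lists, 316 genes were tested, of which 218 were called lower at 24 h than at 8 h and 5 higher, with a median log2 change of -1.65 beside 0.003 for all genes. In the 4-library fit, 104 of them were called lower. Of the 398 genes that fell after the first 8 h, 131 were in these lists, a share of 32.9%. The lists hold 316 of the 11119 genes tested. The lists hold genes by their function, whatever their values, but earlier results of these data were known when the lists were drawn up.

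Entry into S phase is driven by D cyclins with CDK4 and CDK6, then by E cyclins with CDK2. Among G1 cyclins and their kinases, 7 of 12 tested genes fell and 1 rose; 4 fell without replicate 1 at 8 h or replicate 2 at 24 h, and 3 in the 4-library fit. Ccne2, a cyclin E gene, was at 48.6 and 39.8 CPM at 8 h and 9.18 and 7.60 CPM at 24 h, a log2 change of -2.39 ± 0.31 (SE) with adjusted p = 0.0018. Untreated it was at 43.6 and 24.9 CPM at 0 h, and its first step was not called (adjusted p = 0.34). Ccne1, the other cyclin E gene, was at 9.21 and 8.84 CPM at 8 h and 1.73 and 2.14 CPM at 24 h (log2 -2.22 ± 0.60 (SE), adjusted p = 0.03). Cks1b, a CDK-binding subunit, fell from 78.7 and 80.3 to 22.1 and 7.60 CPM, and Cdk4 from 232 and 222 to 112 and 105 CPM, of which Cdk4 had been called lower by 8 h (log2 -0.78, adjusted p = 0.00033). The D cyclin genes differed from the E cyclin genes. Ccnd3, which encodes cyclin D3, rose from 218 and 139 to 306 and 276 CPM (log2 0.71 ± 0.18 (SE), adjusted p = 0.025), after it had been called lower at 8 h than at 0 h (log2 -1.04). Ccnd2 was at 103 and 158 CPM at 8 h and 147 and 252 CPM at 24 h and was not called (adjusted p = 0.27), and neither was Cdk6 (adjusted p = 0.5). Ccne1 was not called without any 1 of the 4 libraries (adjusted p = 0.069 to 0.11). Ccnd3 was not called without replicate 1 at 24 h or replicate 2 at 8 h (adjusted p = 0.1 and 0.056). In the 4-library fit, Ccnd3 had an adjusted p of 0.15 and Cks1b one of 0.06.

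CDK inhibitors moved in both directions. Cdkn1a, which encodes p21, was at 257 and 188 CPM at 8 h and 491 and 387 CPM at 24 h, a log2 change of 0.98 ± 0.18 (SE) with adjusted p = 0.0073. The 24 h libraries were above both untreated libraries (293 and 333 CPM at 0 h), and the gene met the definition of a rise after the first 8 h. Cdkn1b, which encodes p27, met it too, at 79.2 and 83.6 CPM at 8 h and 173 and 128 CPM at 24 h (log2 0.88 ± 0.17 (SE), adjusted p = 0.0076). In contrast, the INK4 genes Cdkn2c (p18) and Cdkn2d (p19), whose products bind CDK4 and CDK6, fell after the first 8 h, with log2 changes of -1.07 ± 0.26 (SE) and -1.14 ± 0.17 (SE) and adjusted p = 0.02 and 0.0028. The pocket protein gene Rbl1 (p107) also fell, from 126 and 155 to 58 and 52.7 CPM, whereas Rb1 and Rbl2 were not called. Cdkn2c was not called without replicate 1 at 24 h or replicate 2 at 8 h (adjusted p = 0.093 and 0.1). The calls of 3 inhibitor genes were lost in the 4-library fit, where the adjusted p was 0.066 for Cdkn1a, 0.065 for Cdkn1b and 0.096 for Cdkn2c.

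Of the transcription factors that run the cycle, 8 of 16 fell, or 2 in the 4-library fit. Foxm1, an activator of mitotic genes, was at 104 and 116 CPM at 8 h and 45.5 and 20.5 CPM at 24 h, a log2 change of -1.73 ± 0.31 (SE) with adjusted p = 0.0062 (0.067 in the 4-library fit). Mybl2, which works with MuvB, had already been called lower at 8 h (log2 -1.70) and fell again, from 42.2 and 36.4 to 10.05 and 7.60 CPM (log2 -2.15 ± 0.28 (SE), adjusted p = 0.0019). The MuvB subunits Lin9 and Lin54 fell after the first 8 h, with log2 changes of -1.76 and -1.20 (adjusted p = 0.0047 and 0.0038). E2f8, a repressor that E2F itself switches on, fell from 92.1 and 95.2 to 34.1 and 14.5 CPM (adjusted p = 0.0047), or 0.062 in the 4-library fit. The activator E2f1 was at 49.5 and 43.5 CPM at 8 h and 39.6 and 28.5 CPM at 24 h and was not called (adjusted p = 0.096). It was called lower without replicate 1 at 24 h (adjusted p = 0.03) and with a replicate block within 8 h and 24 h, an alternative chosen after seeing the data (adjusted p = 0.029).

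**Figure D2:**
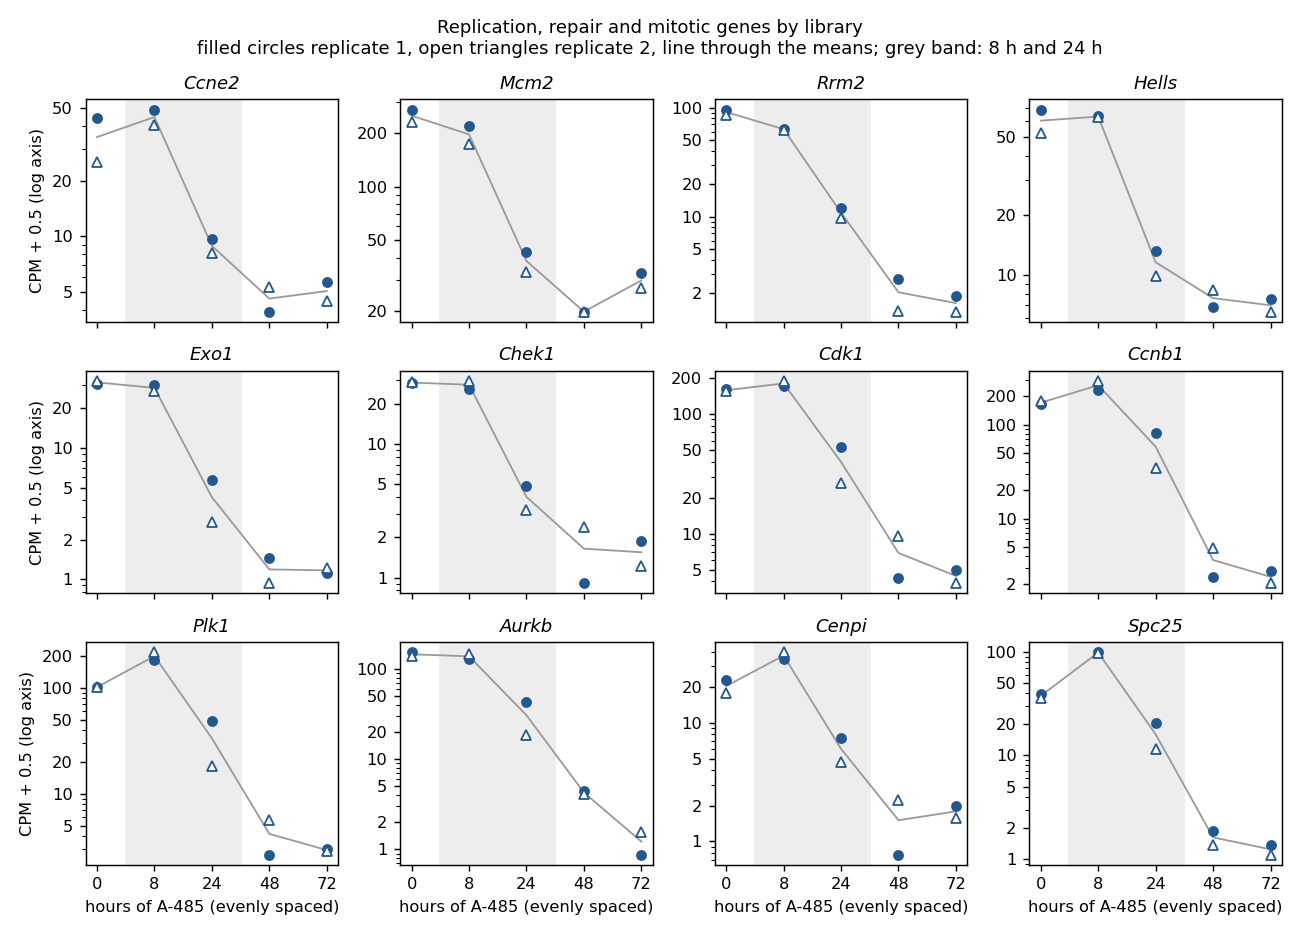
CPM plus 0.5 (y axis, log scale, each panel with its own range) of 12 replication, repair and mitotic genes in every library at 0, 8, 24, 48 and 72 h (x axis, evenly spaced), with filled circles for replicate 1, open triangles for replicate 2 and a line through the means. In each panel both 24 h libraries are below both 8 h libraries, and in Plk1, Cenpi and Spc25 both 8 h libraries are above both 0 h libraries, whereas in Mcm2 and Rrm2 they are below them.

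The replication machinery fell almost as a whole. Of 53 genes for origin licensing and the replication fork, 46 fell, with a median log2 change of -1.68. With any 1 of the 4 libraries left out, 42 to 45 were called lower, and in the 4-library fit 33. By 8 h, 14 of the 53 had been called lower than at 0 h, beside 21.0% of all genes tested. With library sizes alone it was 7 of the 53, beside 1520 of the 11119 genes tested. The definition of a fall after the first 8 h was met by 25 of the 53, beside 3.58% of all genes tested. At 24 h, 51 were called lower than at 0 h, where 27.1% of all genes tested were called lower and 23.2% higher. Mcm2, a subunit of the replicative helicase, was at 220.4 and 173 CPM at 8 h and 42.8 and 32.9 CPM at 24 h, a log2 change of -2.38 ± 0.18 (SE) with adjusted p = 0.00048. Mcm10, which joins the helicase at origins, was at 56 and 67.4 CPM at 8 h and 11.5 and 7.83 CPM at 24 h (log2 -2.67 ± 0.36 (SE), adjusted p = 0.0021). Rfc5, a subunit of the clamp loader, was at 86.3 and 84.8 CPM at 8 h and 26.3 and 27.3 CPM at 24 h (log2 -1.68 ± 0.13 (SE)). In all 3 genes the spread between the 2 libraries of a time was small beside the gap between the times. The rule by which genes were named favours such genes, so this is no further support. Cdc45 and Mcm3 had each been called lower at 8 h, with log2 changes of -0.48 and -0.74, and their second changes were -2.36 and -2.18 on the log2 scale (both adjusted p = 0.00048).

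All 8 tested genes of deoxynucleotide supply fell, with a median log2 change of -2.03, and the count was the same without any 1 library (7 in the 4-library fit). Rrm2, the regulatory subunit of ribonucleotide reductase, was at 63.4 and 62.2 CPM at 8 h and 11.5 and 9.26 CPM at 24 h, a log2 change of -2.60 ± 0.25 (SE) with adjusted p = 0.00075. Rrm1, its catalytic partner, was at 446 and 474 CPM at 8 h and 127 and 94.6 CPM at 24 h (log2 -2.06 ± 0.16 (SE)), and Tyms, which makes thymidylate, was at 82.4 and 74.5 CPM at 8 h and 19.99 and 19.1 CPM at 24 h (log2 -2.0 ± 0.21 (SE)). These 3 genes fell after the first 8 h, while Dut, which clears dUTP, had been called lower at 8 h (log2 -1.0) and fell further, from 97 and 72.4 to 20.1 and 22.8 CPM.

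Repair genes that act at stalled forks fell with them. In the list of homologous recombination and Fanconi repair, 22 of 31 genes fell (13 in the 4-library fit), 13 of them after the first 8 h, and the median log2 change was -1.85 after -0.01 in the first step. Exo1, a nuclease that resects DNA ends, was at 29.6 and 26.6 CPM at 8 h and 5.19 and 2.25 CPM at 24 h (log2 -2.90 ± 0.37 (SE), adjusted p = 0.0017). At 8 h it was slightly below both untreated libraries (30.3 and 31.8 CPM at 0 h), a step that was not called (adjusted p = 0.76). Hells, a chromatin remodeler needed for DNA methylation, was at 63.2 and 62.2 CPM at 8 h and 12.7 and 9.38 CPM at 24 h (log2 -2.50 ± 0.21 (SE)). Chek1, the kinase that signals stalled forks, had the largest fall after the first 8 h among genes of at least 10 CPM, at 25.6 and 29.2 CPM at 8 h and 4.32 and 2.73 CPM at 24 h, a log2 change of -2.95 ± 0.45 (SE) with adjusted p = 0.0032. Of the other genes with the largest falls by the same rule, Fignl1, an ATPase of recombination, was at 69.4 and 82.8 CPM at 8 h and 14 and 8.66 CPM at 24 h, and Rad54b, a second recombination remodeler, at 16 and 25 CPM at 8 h and 4.97 and 1.54 CPM at 24 h. Lrr1, part of a ubiquitin ligase that unloads the helicase, was at 10.6 and 12.1 CPM at 8 h and 2.05 and 0.949 CPM at 24 h. Rad54b was not called without replicate 2 at 8 h (adjusted p = 0.0503). In the list of DNA damage signalling, 9 of 16 genes fell and 2 did so after the first 8 h; 5 fell without replicate 2 at 8 h or replicate 2 at 24 h, and 2 in the 4-library fit.

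Genes for G2 and mitosis fell late. Of 22 G2/M kinases, cyclins and regulators, 20 fell from 8 h to 24 h and 15 did so after the first 8 h, while 1 had been called lower by 8 h. The 4-library fit called 8 of them lower. Their median log2 change was -2.07 from 8 h to 24 h and 0.42 from 0 h to 8 h. Cdk1, the kinase that starts mitosis, was at 171 and 188 CPM at 8 h and 52.2 and 26.2 CPM at 24 h, a log2 change of -2.19 ± 0.35 (SE) with adjusted p = 0.0039. Its cyclin gene Ccnb1 was at 233 and 289.7 CPM at 8 h and 81.6 and 33.9 CPM at 24 h (log2 -2.18 ± 0.37 (SE), adjusted p = 0.0053, or 0.056 in the 4-library fit). Plk1, a kinase of mitotic entry and spindle assembly, was at 183 and 216 CPM at 8 h and 48 and 18 CPM at 24 h (log2 -2.59 ± 0.41 (SE), adjusted p = 0.0038). For Plk1 the 8 h libraries were above both 0 h libraries (101 and 102 CPM at 0 h), a first step that was not called (adjusted p = 0.075). Aurkb, the kinase of the chromosome passenger complex, was at 130.3 and 146 CPM at 8 h and 42.6 and 18 CPM at 24 h (log2 -2.18 ± 0.34 (SE), adjusted p = 0.0037, or 0.052 in the 4-library fit). Mki67, the proliferation marker Ki-67, was at 816 and 1096 CPM at 8 h and 404 and 171 CPM at 24 h (log2 -1.73 ± 0.50 (SE), adjusted p = 0.038). Mki67 was not called without replicate 2 at 24 h, replicate 1 at 8 h or replicate 2 at 8 h (adjusted p = 0.13, 0.058 and 0.12). Its call was lost also with the replicate number as a block (adjusted p = 0.059) and in the 4-library fit (adjusted p = 0.081).

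Spindle and kinetochore genes also fell. Of 32 genes for spindle, kinesins and cytokinesis 31 fell, and of 39 kinetochore and centromere genes 36 fell, with median log2 changes of -1.91 and -1.86. In the first step these medians were 0.63 and 0.21, and 23 and 25 genes met the definition of a fall after the first 8 h. Without replicate 2 at 8 h, 18 of the spindle genes and 26 of the kinetochore genes were called lower, and in the 4-library fit 6 and 17. Racgap1, a subunit of the central spindle complex, was at 157 and 182 CPM at 8 h and 62.4 and 42.1 CPM at 24 h (log2 -1.69 ± 0.20 (SE), adjusted p = 0.0014), and Tacc3, which holds microtubules of the spindle together, at 126 and 140.3 CPM at 8 h and 41.4 and 22.2 CPM at 24 h (log2 -2.07 ± 0.29 (SE)). Cenpe, a motor that carries chromosomes to the spindle middle, was at 151 and 209.7 CPM at 8 h and 60.8 and 34.2 CPM at 24 h (log2 -1.92 ± 0.26 (SE)). Cenpi and Ska1, both at the kinetochore, were among the 10 largest late falls, at 34.2 and 38.8 CPM at 8 h and 6.91 and 4.15 CPM at 24 h for Cenpi and 30.5 and 32.8 CPM at 8 h and 6.81 and 2.85 CPM at 24 h for Ska1. Spc25, a subunit of the NDC80 complex, differed in its first step: it had been called higher at 8 h than at 0 h (log2 1.40, adjusted p = 0.0031) before it fell to 19.99 and 11 CPM at 24 h (log2 -2.66 ± 0.26 (SE)).

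The size of the mitotic fall differed between the replicate numbers. In the spindle list the median log2 change was -1.23 between the replicate 1 libraries and -2.72 between the replicate 2 libraries, and in the G2/M list it was -1.52 and -2.82. For the replication fork list the 2 values were closer, at -1.55 and -1.76. Replicate 2 is the library with high Wnt2 at both times, and the part of that difference in these values was not tested. The fall was present in both replicate numbers.

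Genes of chromosome structure and mitotic exit fell in smaller numbers. Of 21 cohesin, condensin and topoisomerase genes 15 fell, 9 of them after the first 8 h, with a median of -0.84, and the 4-library fit called 8. The condensin genes Ncapg2 and Smc2 had log2 changes of -1.77 and -1.94, against -0.84 for the cohesin gene Smc1a. Of 19 genes of the anaphase-promoting complex and mitotic exit, 8 fell, 6 of them after the first 8 h, and 5 fell without replicate 2 at 8 h or 3 in the 4-library fit. Fbxo5 (EMI1), an inhibitor of that complex and an E2F target, was at 68.9 and 62.7 CPM at 8 h and 21.5 and 11.9 CPM at 24 h (log2 -1.98 ± 0.25 (SE)). The core subunits Anapc5 and Cdc23 had smaller log2 changes of -0.77 and -0.63 (adjusted p = 0.0021 and 0.005).

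Replication-dependent histone genes, which package new DNA in S phase, were called in small numbers. Of 39 tested, 5 were called lower and 2 higher, shares near or below those of all genes (12.0% and 9.73%), with a median log2 change of -1.22. With 1 library left out, 1 to 4 were called lower. The summed level of all 68 members in the files was 199.8 and 219 CPM at 8 h and 207 and 258 CPM at 24 h. Of these members 30 were under 1 CPM in all 4 libraries, so the sum can rest on a few. At 24 h, 20 of the 39 were called lower than at 0 h and 5 higher.

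With A-485 for longer, 3 genes of these groups were lower still. At 48 h Plk1 was at 2.17 and 5.22 CPM and Cdk1 at 3.79 and 9.0 CPM, and at 72 h they were at 2.5 and 2.39 and 4.51 and 3.35 CPM. Mcm2 was at 19.4 and 19.4 CPM at 48 h and 32.2 and 26.4 CPM at 72 h. All of these libraries were below both 24 h libraries.

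Promoter sequences are shown for 6 genes that fell after the first 8 h, since 3 short elements are known from cell cycle promoters. They were chosen after their matches were seen, as examples of each element beside the falls reported above and below. The elements are the E2F site (TTTCCCGC, TTTCGCGC, TTTGCCGC or TTTGGCGC), the CHR element that MuvB complexes bind (TTTGAA), and the NF-Y box (CCAAT), each searched on both strands. Each window runs from 250 bases before to 50 bases after a RefSeq gene start on GRCm38.p6, 5′ to 3′ on the strand of the gene, with all matches to the 3 elements in capitals; a match on the other strand appears as its reverse complement, and neighbouring matches can touch.
Hells, chr19:38930740-38931039, plus strand: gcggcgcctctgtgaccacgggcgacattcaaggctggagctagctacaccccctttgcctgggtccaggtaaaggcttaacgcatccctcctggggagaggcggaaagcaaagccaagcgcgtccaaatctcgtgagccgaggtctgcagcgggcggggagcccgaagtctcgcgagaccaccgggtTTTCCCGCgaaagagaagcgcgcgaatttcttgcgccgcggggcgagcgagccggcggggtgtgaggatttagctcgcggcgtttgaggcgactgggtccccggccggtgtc
Ezh2, chr6:47594981-47595280, minus strand: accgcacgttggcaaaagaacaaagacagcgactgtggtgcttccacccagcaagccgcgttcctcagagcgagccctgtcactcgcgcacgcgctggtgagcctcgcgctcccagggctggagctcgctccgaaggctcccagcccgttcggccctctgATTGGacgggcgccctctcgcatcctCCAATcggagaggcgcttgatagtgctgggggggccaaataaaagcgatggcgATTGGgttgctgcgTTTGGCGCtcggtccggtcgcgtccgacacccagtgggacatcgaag
Cdk1, chr10:69352863-69353162, minus strand: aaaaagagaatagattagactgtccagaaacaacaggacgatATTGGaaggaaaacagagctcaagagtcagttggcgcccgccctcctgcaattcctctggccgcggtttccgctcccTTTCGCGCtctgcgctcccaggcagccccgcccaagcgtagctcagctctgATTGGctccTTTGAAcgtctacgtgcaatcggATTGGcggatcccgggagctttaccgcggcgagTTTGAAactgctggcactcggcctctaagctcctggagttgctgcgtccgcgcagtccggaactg
Plk1, chr7:122159185-122159484, plus strand: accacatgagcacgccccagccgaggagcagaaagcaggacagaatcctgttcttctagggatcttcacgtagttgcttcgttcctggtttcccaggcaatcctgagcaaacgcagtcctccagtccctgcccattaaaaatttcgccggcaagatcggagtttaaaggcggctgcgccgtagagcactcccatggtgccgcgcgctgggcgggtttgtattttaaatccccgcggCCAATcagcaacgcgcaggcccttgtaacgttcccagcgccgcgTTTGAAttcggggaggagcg
Racgap1, chr15:99651607-99651906, minus strand: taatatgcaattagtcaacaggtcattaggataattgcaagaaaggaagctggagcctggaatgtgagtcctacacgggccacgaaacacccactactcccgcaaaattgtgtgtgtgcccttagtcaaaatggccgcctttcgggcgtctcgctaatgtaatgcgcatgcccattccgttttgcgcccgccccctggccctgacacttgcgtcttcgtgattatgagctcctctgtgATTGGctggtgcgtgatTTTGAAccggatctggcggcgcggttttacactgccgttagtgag
Fbxo5, chr10:5805416-5805715, minus strand: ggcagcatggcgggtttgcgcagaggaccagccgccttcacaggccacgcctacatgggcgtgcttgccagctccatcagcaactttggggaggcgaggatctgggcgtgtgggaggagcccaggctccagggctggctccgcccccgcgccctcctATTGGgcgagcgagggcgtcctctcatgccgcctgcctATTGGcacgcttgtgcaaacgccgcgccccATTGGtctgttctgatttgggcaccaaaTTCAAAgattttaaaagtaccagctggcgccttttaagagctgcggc

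Counted from the start, with 1 as its first base, Hells had an E2F match at -62 and Ezh2 one at 4, the first of these from a replication-linked and the second from a histone methyltransferase gene. Plk1 had a CHR match at 31 and an NF-Y box at -14, Racgap1 a CHR match at 6 and a box at -12, and Fbxo5 a CHR match at 4 with 3 boxes. Cdk1 held all 3 kinds, with an E2F match at -131, CHR matches at -71 and -15 and 3 boxes. The windows of Chek1, Fignl1 and Tyms, which also fell after the first 8 h, held no match to these exact letters. Sites with other letters, or cut by the edge of a window, were not counted.

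Over all genes that fell after the first 8 h, 330 of 398 matched a RefSeq window by symbol, beside 9021 of the 11119 genes tested. Among mitotic genes that fell after the first 8 h, 32 of 61 windows (52.5%) held a CHR match and 47 (77.0%) an NF-Y box, against 12.4% and 38.3% of the 11440 windows of all genes tested. Among replication and repair genes that fell after the first 8 h, 9 of 35 windows (25.7%) held an E2F match, against 4.12% of all and 11.5% of the mitotic windows. For all genes that fell after the first 8 h, the E2F, CHR and NF-Y shares of windows were 11.5%, 24.4% and 56.3%. For the other genes called lower from 8 h to 24 h they were 9.56%, 16.6% and 46.7%, also above those of all genes tested. Of the 187 windows of genes that rose after the first 8 h, 1 held an E2F match (0.535%) and 24 a CHR match (12.8%). A match is a description of these letters, and genes of a group can share sequence history and base composition.

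**Figure D3:**
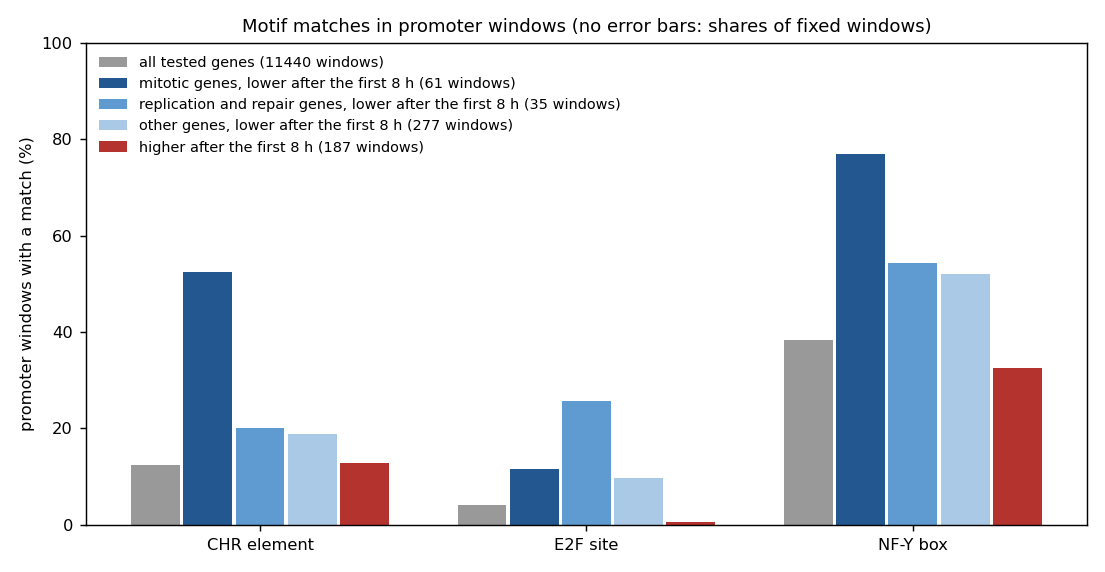
Share of RefSeq promoter windows (y axis, percent) with at least 1 match to a CHR element, an E2F site or an NF-Y box (x axis), for all tested genes and 4 groups by their change after the first 8 h. The mitotic group has the highest CHR share, 52.5% against 12.4% of all windows, and the replication and repair group the highest E2F share, 25.7% against 4.12%.

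Genes for writers and erasers of histone marks moved in both directions. The list of histone methyltransferases and demethylases had 6 of 35 genes lower and 9 higher (2 and 1 in the 4-library fit). The list of DNA methylation writers and TET erasers had 3 of 10 lower and 1 higher (1 and 0 in the 4-library fit). Its share of higher genes, 10%, is near the 9.73% of all genes. Ezh2, the methyltransferase of Polycomb complex PRC2, was at 112 and 100.4 CPM at 8 h and 45.5 and 39.9 CPM at 24 h (log2 -1.31 ± 0.15 (SE), adjusted p = 0.0011). Phf19, a PRC2 partner, was at 48.3 and 48.7 CPM at 8 h and 15.4 and 7.60 CPM at 24 h, and Suv39h1, which methylates histone H3 at lysine 9, at 89.7 and 106 CPM at 8 h and 45.4 and 29 CPM at 24 h. These 3 genes fell after the first 8 h. Uhrf1, which recruits the maintenance DNA methyltransferase, was at 158 and 112 CPM at 8 h and 43.4 and 20.3 CPM at 24 h (log2 -2.08 ± 0.35 (SE)), and Dnmt1, that methyltransferase, at 402 and 337 CPM at 8 h and 199.97 and 173 CPM at 24 h (log2 -0.99 ± 0.16 (SE)). Of the first list, without replicate 2 at 8 h 3 were lower, and without replicate 1 at 8 h or replicate 1 at 24 h 4 were higher. Among the higher ones was Kdm6b, a demethylase that opposes PRC2, at 39.6 and 34.7 CPM at 8 h and 94.4 and 78.6 CPM at 24 h (log2 1.22 ± 0.17 (SE), adjusted p = 0.0023). The targets of the drug were not called in this interval: Ep300 was at 344 and 379 CPM at 8 h and 486 and 415 CPM at 24 h (adjusted p = 0.13) and Crebbp at 132 and 159 CPM at 8 h and 158 and 149 CPM at 24 h (adjusted p = 0.7), after both had been called higher by 8 h (log2 1.22 and 1.67).

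Proteasome and splicing genes fell after a first step with few falls. Of 31 proteasome subunit genes, 26 fell from 8 h to 24 h, with a median log2 change of -0.61, while 9 had been called higher by 8 h (23 with library sizes alone). Psmc4, an ATPase of the regulatory particle, was at 137 and 161 CPM at 8 h and 69.6 and 82.4 CPM at 24 h, below both untreated libraries (93.8 and 89.3 CPM at 0 h); its steps were 0.70 and -0.97 on the log2 scale (adjusted p = 0.0029 and 0.0017). The proteasome count was 12 without replicate 2 at 8 h and 11 without replicate 1 at 24 h, and 2 in the 4-library fit. Of 44 spliceosome and splicing factor genes, 26 fell, 10 after the first 8 h, and 1, Srsf5, rose; 17 fell without replicate 1 at 24 h, and 6 in the 4-library fit. Snrpd1, a core snRNP protein, was at 85.2 and 76.5 CPM at 8 h and 29.1 and 35.5 CPM at 24 h (log2 -1.33 ± 0.15 (SE)), and Srsf3, a splicing regulator, at 392 and 411 CPM at 8 h and 220.4 and 244 CPM at 24 h (log2 -0.79 ± 0.11 (SE)).

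Of 24 cytosolic and mitochondrial chaperone genes, 17 fell in the same interval (7 in the 4-library fit). Of 23 ER chaperone and unfolded protein sensor genes, 10 fell and 2 rose. In that list 6 fell without replicate 2 at 8 h or either 24 h library, and 1 in the 4-library fit. Hspa8, the constitutive HSC70 chaperone, was at 2719 and 2641 CPM at 8 h and 1226 and 1287 CPM at 24 h (log2 -1.09 ± 0.11 (SE), adjusted p = 0.00085), and its first step was not called (log2 0.01, adjusted p = 0.97). Stip1, which links HSP70 and HSP90, was at 313 and 316 CPM at 8 h and 156 and 165 CPM at 24 h (log2 -0.97 ± 0.09 (SE)).

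Mitochondrial energy genes fell in part. Of 75 respiratory chain and ATP synthase genes 32 fell, 8 of them after the first 8 h, with a median of -0.42 after -0.02 in the first step. With each library's trend on transcript length removed, the median from 8 h to 24 h was -0.18. Cycs, cytochrome c, was at 136 and 161 CPM at 8 h and 39.2 and 43.2 CPM at 24 h (log2 -1.85 ± 0.15 (SE), adjusted p = 0.00054). Atp5b, a catalytic subunit of ATP synthase, was at 1267 and 1191 CPM at 8 h and 726 and 668 CPM at 24 h (log2 -0.82 ± 0.09 (SE)). Of 18 citric acid cycle and pyruvate dehydrogenase genes 9 fell, 6 after the first 8 h. Idh3a, of isocitrate dehydrogenase, was at 86.5 and 87.8 CPM at 8 h and 32.7 and 35.6 CPM at 24 h (log2 -1.35 ± 0.21 (SE)), and Mdh2, mitochondrial malate dehydrogenase, at 294 and 278 CPM at 8 h and 149.5 and 165 CPM at 24 h (log2 -0.86 ± 0.09 (SE)). The count for the respiratory chain was 14 without replicate 1 at 8 h and the same without replicate 1 at 24 h, and 4 in the 4-library fit, which called 4 of the citric acid cycle genes. Of the mitochondrial ribosomal proteins, 31 of 77 fell, a count that was 13 and 12 without replicates 1 and 2 at 8 h and 8 without replicate 1 at 24 h. In the 4-library fit, edgeR called 0 of the mitochondrial ribosomal proteins lower at the adjusted threshold and 35 at an unadjusted p under 0.05.

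Genes of ribosome production had in large part been called lower before this interval. Of 47 nucleolar ribosome biogenesis genes, 26 fell from 8 h to 24 h and 26 had been called lower by 8 h, and 1 met the definition of a later fall. The later count was 14 without replicate 2 at 8 h and 12 without replicate 1 at 24 h, and 6 in the 4-library fit. Nop56, a core protein of snoRNPs, was at 81.9 and 84.7 CPM at 8 h and 31.1 and 29.4 CPM at 24 h (log2 -1.46 ± 0.12 (SE), adjusted p = 0.00048) after a first step of -0.83. Of 23 purine and pyrimidine synthesis genes 17 fell, 10 without replicate 1 at 24 h, and 6 in the 4-library fit. Impdh2, the enzyme of guanine nucleotide synthesis, was at 194 and 159 CPM at 8 h and 81.5 and 66.1 CPM at 24 h (log2 -1.26 ± 0.15 (SE)), and Shmt2, which supplies one-carbon units, at 166 and 134 CPM at 8 h and 74.8 and 69.8 CPM at 24 h (log2 -1.05 ± 0.13 (SE)). Among ATF4 and amino acid supply genes, Psat1 of serine synthesis fell from 178 and 189 to 45.6 and 40.7 CPM (log2 -2.09 ± 0.28 (SE)) and Asns, asparagine synthetase, from 89.9 and 80.3 to 30.7 and 26.9 CPM (log2 -1.56 ± 0.22 (SE)). Of the cytosolic ribosomal protein genes, 66 of 79 had been called lower by 8 h (15 with library sizes alone). Their median log2 change from 8 h to 24 h was -0.10, but 0.13 with each library's trend on transcript length removed. In that step 7 were called lower (3 without replicate 1 at 8 h or replicate 1 at 24 h). Rps2 was one of these 7, at 2057 and 1882 CPM at 8 h and 1030.2 and 1000.3 CPM at 24 h (log2 -0.96 ± 0.10 (SE)). Counts for ribosomal proteins can be shared with processed pseudogenes, which leaves their values uncertain.

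Of 23 genes for sterol synthesis and uptake, 13 fell (8 without replicate 1 at 8 h, 4 in the 4-library fit) and 16 had been called lower by 8 h. Idi1, isopentenyl diphosphate isomerase, was at 121 and 79.2 CPM at 8 h and 23.3 and 18.5 CPM at 24 h (log2 -2.25 ± 0.28 (SE), adjusted p = 0.0017) and met the definition of a later fall. Glycolysis genes had another course. All 21 tested had been called lower by 8 h, and from 8 h to 24 h 6 rose and 2 fell, or 1 fell without either 24 h library, and the 4-library fit called 3 higher. Hk3, a hexokinase of myeloid cells, was at 165 and 232 CPM at 8 h and 515 and 584 CPM at 24 h (log2 1.47 ± 0.16 (SE), adjusted p = 0.0011), and Aldoa, aldolase, at 1075 and 961 CPM at 8 h and 1934 and 1704 CPM at 24 h (log2 0.84 ± 0.12 (SE)). Both were still below their untreated levels of 744 and 839 CPM at 0 h for Hk3 and 3865 and 4716 CPM at 0 h for Aldoa. Pgk1, phosphoglycerate kinase, fell further, from 655 and 573 to 391 and 318 CPM (log2 -0.79 ± 0.13 (SE)). Ndrg1, a target of hypoxia-inducible factor, rose from 37.3 and 23.7 to 169 and 108 CPM (log2 2.18 ± 0.30 (SE)).

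**Figure D4:**
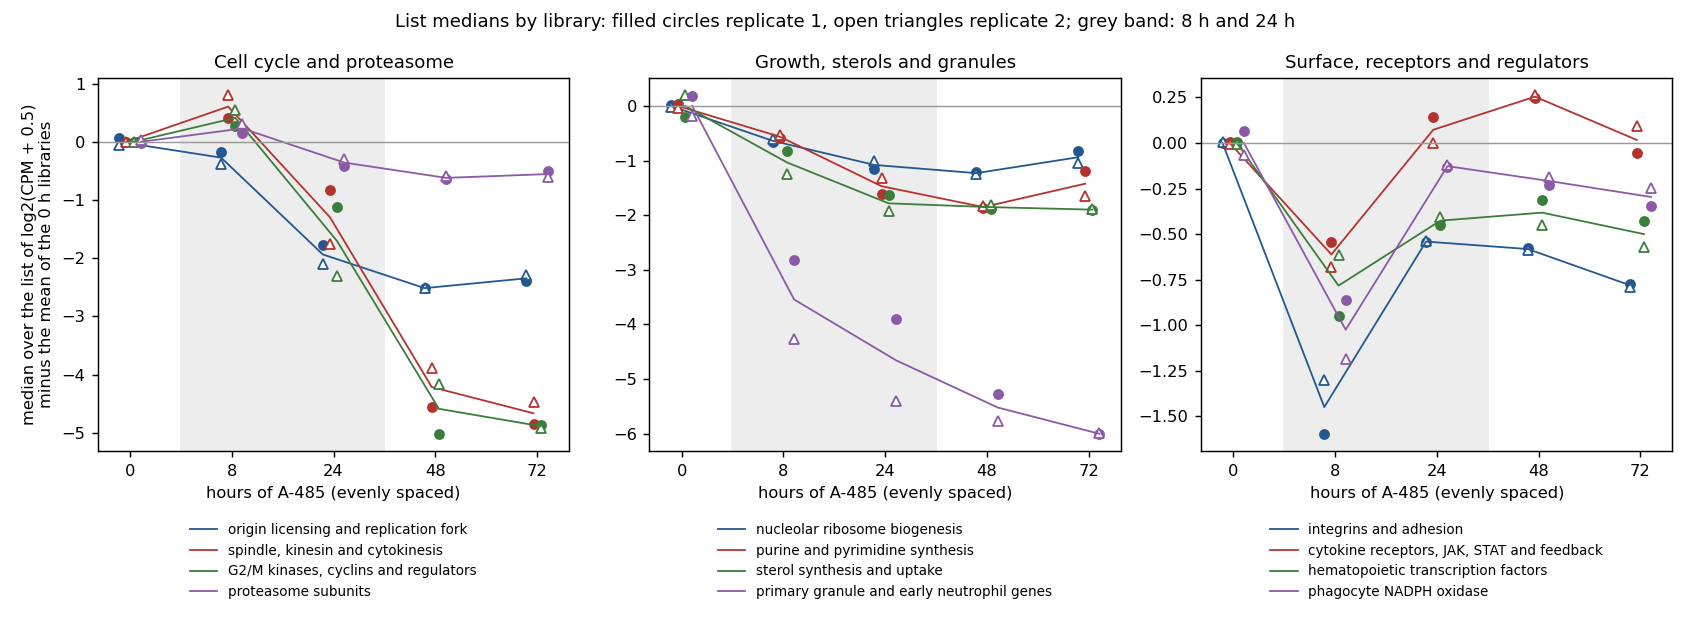
Median over each of 12 gene lists of log2(CPM + 0.5) minus the mean of the 0 h libraries (y axis, each panel with its own range), for every library at 0, 8, 24, 48 and 72 h (x axis, evenly spaced), with filled circles for replicate 1 and open triangles for replicate 2. The spindle list is at 0.41 and 0.80 at 8 h and at -0.83 and -1.76 at 24 h, the nucleolar list is at -0.66 and -0.61 by 8 h and lower at 24 h, and the integrin, receptor, transcription factor and oxidase lists are lowest at 8 h.

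The 10 largest rises from 8 h to 24 h included genes of both courses. Some were low at 0 h and at 8 h and came up by 24 h. Fcgrt, the neonatal Fc receptor, had the largest called rise at 10 CPM or more, at 1.38 and 1.12 CPM at 8 h and 23.2 and 12.5 CPM at 24 h, a log2 change of 3.82 ± 0.53 (SE) with adjusted p = 0.0022. P2rx7, an ATP-gated channel of macrophages, was at 1.15 and 1.68 CPM at 8 h and 10.2 and 9.97 CPM at 24 h (log2 2.82 ± 0.50 (SE), adjusted p = 0.006), against 0.371 and 0.696 CPM at 0 h. Ctss, the lysosomal protease cathepsin S, was at 20.8 and 7.95 CPM at 8 h and 109 and 65.9 CPM at 24 h (log2 2.60 ± 0.55 (SE)) and had been called higher at 8 h as well (log2 2.55). Pira6, a paired immunoglobulin-like receptor gene, was at 3.80 and 5.26 CPM at 8 h and 29.3 and 18.8 CPM at 24 h, but reads can be shared with its near-identical family members. Ctss was not called without replicate 2 at 8 h (adjusted p = 0.054). Pira6 was not called without replicate 1 at 8 h (adjusted p = 0.058).

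Others had been called lower by 8 h. Tle3, a corepressor of the Groucho family, was at 297 and 310.0 CPM at 0 h, then at 18.1 and 29.1 CPM at 8 h and 138 and 130.1 CPM at 24 h, a log2 change of 2.5 ± 0.19 (SE) with adjusted p = 0.00048 after a first step of -3.68. Itgb5, an integrin subunit, was at 12.5 and 11.8 CPM at 8 h and 67.6 and 55.7 CPM at 24 h (log2 2.34 ± 0.48 (SE)) and Rasgrp4, a RAS activator of myeloid cells, at 19.7 and 11.8 CPM at 8 h and 101 and 119.7 CPM at 24 h (log2 2.81 ± 0.23 (SE)). Serpina3g, a serine protease inhibitor, was at 9.44 and 28.2 CPM at 8 h and 62.8 and 172 CPM at 24 h, and Lppr3, a membrane phosphatase-related gene, at 6.68 and 2.80 CPM at 8 h and 39.1 and 8.66 CPM at 24 h; in both the replicates of a time differed by more than 2-fold. Zfr2 completed the 10 largest rises, at 2.99 and 6.71 CPM at 8 h and 13.6 and 36.4 CPM at 24 h. Itgb5 was not called without replicate 2 at 8 h (adjusted p = 0.055). Serpina3g was not called without replicate 2 at 24 h or replicate 1 at 8 h (adjusted p = 0.14 and 0.13). Lppr3 was not called without replicate 1 at 24 h, replicate 1 at 8 h or replicate 2 at 8 h (adjusted p = 0.27, 0.058 and 0.16).

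Integrin and other adhesion genes of myeloid cells followed this second course in part. Of 18 tested, 6 rose (5 in the 4-library fit), with a median log2 change of 0.60, after 12 had been called lower by 8 h with a median of -1.52. Itgam (CD11b), which pairs with Itgb2, was at 235 and 205 CPM at 8 h and 945 and 847 CPM at 24 h, a log2 change of 2.03 ± 0.12 (SE) with adjusted p = 0.00048. Its 24 h libraries were above both 0 h libraries (834 and 731 CPM at 0 h). Itgb2, the shared beta chain, was at 109 and 154 CPM at 8 h and 451 and 438 CPM at 24 h (log2 1.76 ± 0.17 (SE)), and Selplg, the ligand of P-selectin, at 175 and 139 CPM at 8 h and 336 and 299 CPM at 24 h (log2 1.02 ± 0.15 (SE)). Adgre1 (F4/80), a surface marker of macrophages, had the same course, at 328 and 333 CPM at 0 h, then 74.9 and 79.6 CPM at 8 h and 406 and 328 CPM at 24 h (log2 2.25 ± 0.16 (SE), adjusted p = 0.00048).

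Cytokine receptor and signalling genes had 14 of 30 members higher (4 in the 4-library fit) and 1, Kit, lower, with a median of 0.61 after -0.61 in the first step. Csf2rb, the common beta chain of the GM-CSF and IL-3 receptors, was at 224 and 169.9 CPM at 8 h and 464 and 403 CPM at 24 h (log2 1.14 ± 0.15 (SE), adjusted p = 0.0017), against 589 and 613 CPM at 0 h. Il4ra, the IL-4 receptor, was at 63.3 and 47.3 CPM at 8 h and 149 and 142 CPM at 24 h (log2 1.40 ± 0.14 (SE)), and Csf3r, the G-CSF receptor, at 54.3 and 39.2 CPM at 8 h and 105 and 88.9 CPM at 24 h (log2 1.05 ± 0.20 (SE)). Cish, a feedback inhibitor induced by STAT5, was at 121 and 101 CPM at 8 h and 269 and 255 CPM at 24 h (log2 1.24 ± 0.12 (SE), adjusted p = 0.00075). It rose after the first 8 h and its 24 h libraries were above both 0 h libraries (142 and 129.9 CPM at 0 h). Ifngr2, a chain of the interferon gamma receptor, rose from 65.4 and 69 to 155 and 151 CPM (log2 1.19 ± 0.10 (SE)). With replicate 2 at 8 h or replicate 1 at 24 h left out, 9 genes of the list were called higher. Kit, the receptor of stem cell factor, fell, with a log2 change of -2.01 (adjusted p = 0.012, or 0.12 in the 4-library fit), after a first step of -4.83.

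Hematopoietic transcription factors had 10 of 29 members higher, after 16 had been called lower by 8 h, and 6 were called higher without replicate 2 at 24 h or 2 in the 4-library fit. Runx1, a factor of blood stem and progenitor cells, was at 50.2 and 70.6 CPM at 8 h and 269 and 250.2 CPM at 24 h, a log2 change of 2.10 ± 0.25 (SE) with adjusted p = 0.0014. Its 24 h libraries were in the range of the 0 h libraries (290.1 and 226 CPM at 0 h). Cebpa, the factor of granulocyte and monocyte fate, was at 179 and 179 CPM at 8 h and 347 and 341 CPM at 24 h (log2 0.94 ± 0.12 (SE), adjusted p = 0.0019), still far below its 1119 and 927 CPM at 0 h. Hhex, a homeobox factor, was at 66.3 and 80.3 CPM at 8 h and 119 and 155 CPM at 24 h (log2 0.91 ± 0.15 (SE)) and rose after the first 8 h. Spi1 (PU.1) was at 307 and 201 CPM at 8 h and 398 and 326 CPM at 24 h and was not called (adjusted p = 0.085). However, 6 of its 14 alternatives called it higher, among them the one without replicate 1 at 8 h (adjusted p = 0.013). Among MLL-fusion targets 4 of 20 rose (0 in the 4-library fit), beside 9.73% of all genes tested. Hoxa9 was at 113 and 152 CPM at 8 h and 128 and 203 CPM at 24 h and Meis1 at 51.6 and 76.9 CPM at 8 h and 63.8 and 115 CPM at 24 h, and neither was called (adjusted p = 0.35 and 0.34). Myc, called lower by 8 h (log2 -4.59), was at 27.9 and 11.3 CPM at 8 h and 15.6 and 4.98 CPM at 24 h and was not called in the later step (adjusted p = 0.37).

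**Figure D5:**
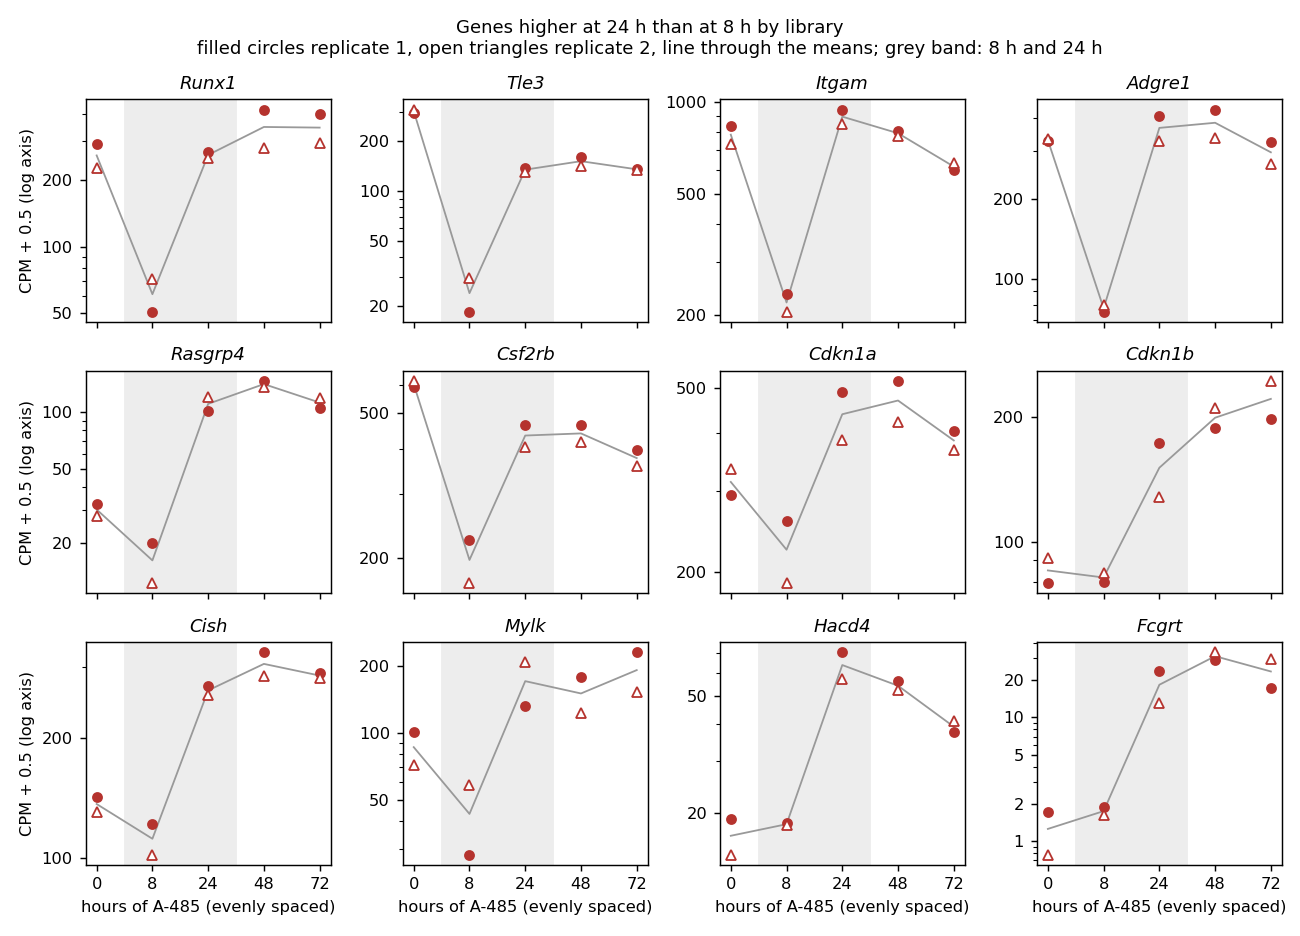
CPM plus 0.5 (y axis, log scale, each panel with its own range) of 12 genes called higher at 24 h than at 8 h, in every library at 0, 8, 24, 48 and 72 h (x axis, evenly spaced), with filled circles for replicate 1, open triangles for replicate 2 and a line through the means. Runx1, Tle3, Itgam, Adgre1 and Csf2rb are lowest at 8 h, and Cdkn1b, Cish, Hacd4 and Fcgrt have 24 h libraries above every 0 h and 8 h library.

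Effector genes of phagocytes rose in part. Of 6 NADPH oxidase genes 5 rose, with a median of 0.87 (2 rose in the 4-library fit). Ncf1, the organizer subunit p47phox, was at 359 and 232 CPM at 8 h and 776 and 663 CPM at 24 h (log2 1.29 ± 0.19 (SE), adjusted p = 0.0027), and Cyba, the membrane subunit p22phox, at 199 and 164 CPM at 8 h and 326 and 331 CPM at 24 h (log2 0.86 ± 0.11 (SE)). Of 43 lysosomal hydrolase and membrane protein genes 10 rose, or 3 in the 4-library fit. Man2b1, lysosomal mannosidase, was at 648 and 681 CPM at 8 h and 1093 and 1354 CPM at 24 h (log2 0.88 ± 0.12 (SE)), and Fuca1, a fucosidase that rose after the first 8 h, at 127 and 133 CPM at 8 h and 228 and 301 CPM at 24 h (log2 1.02 ± 0.14 (SE)). Cd68, a lysosomal glycoprotein of macrophages, was at 18.5 and 13.3 CPM at 8 h and 67.1 and 54.9 CPM at 24 h (log2 1.94 ± 0.20 (SE), adjusted p = 0.00085). Of 26 tested monocyte and macrophage genes, 4 rose and 1 fell, beside 9.73% and 12.0% of all genes. With 1 library left out, 2 to 7 were called higher. Their summed level was 1858 and 1377 CPM at 8 h and 2156 and 1250.3 CPM at 24 h, so it was higher at 24 h in replicate 1 and lower in replicate 2. Ly6c2, a surface marker of monocytes, fell instead, from 1179 and 944 to 355 and 306 CPM (log2 -1.68 ± 0.19 (SE)).

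Genes of stress, quiescence and cell death rose in part. Of 24 genes in the list of p53 and its targets 9 rose and 1, Trp53, fell, a call lost without replicate 2 at 8 h or replicate 1 at 24 h; the 4-library fit called 2 higher. Bbc3 (PUMA), a BH3-only protein that triggers apoptosis, was at 24.1 and 28.8 CPM at 8 h and 84.7 and 103 CPM at 24 h (log2 1.83 ± 0.24 (SE), adjusted p = 0.0018), and Sesn2, a sestrin, at 70.3 and 61.1 CPM at 8 h and 117 and 112 CPM at 24 h (log2 0.80 ± 0.14 (SE)). Of 20 FOXO factors and quiescence targets 7 rose (3 in the 4-library fit), with a median of 0.71. Pik3ip1, an inhibitor of PI3 kinase, was at 22.1 and 17.3 CPM at 8 h and 88.6 and 50.2 CPM at 24 h (log2 1.82 ± 0.30 (SE)), and Txnip, a brake on glucose uptake, at 423 and 378 CPM at 8 h and 1009 and 839 CPM at 24 h (log2 1.21 ± 0.24 (SE)). In the BCL2 family 4 of 14 rose (1 in the 4-library fit): Bbc3, Bmf, Bcl2l11 and Mcl1. Bmf was at 7.94 and 4.81 CPM at 8 h and 32.9 and 19.9 CPM at 24 h (log2 2.05 ± 0.30 (SE)) and Bcl2l11 (BIM) at 69.7 and 85.3 CPM at 8 h and 124 and 154 CPM at 24 h (log2 0.84 ± 0.16 (SE)), both of which promote apoptosis. Mcl1, a survival protein, was at 384 and 358 CPM at 8 h and 603 and 540.0 CPM at 24 h (log2 0.62 ± 0.10 (SE), adjusted p = 0.0047). Txnip was not called without replicate 2 at 8 h (adjusted p = 0.051).

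The 10 largest rises after the first 8 h came from genes of varied function. Mylk, myosin light chain kinase, was at 27.7 and 57.4 CPM at 8 h and 132 and 208 CPM at 24 h (log2 1.99 ± 0.39 (SE), adjusted p = 0.0088). Hacd4, an enzyme of long-chain fatty acid synthesis, was at 18 and 17.7 CPM at 8 h and 69.8 and 56.6 CPM at 24 h (log2 1.83 ± 0.18 (SE), adjusted p = 0.00075), with 8 h libraries at the level of the untreated ones (18.5 and 13.9 CPM at 0 h). Dennd1c, an activator of RAB35, was at 18.3 and 9.29 CPM at 8 h and 52.5 and 47.5 CPM at 24 h (log2 1.86 ± 0.33 (SE)), and Pla2g15, a lysosomal phospholipase, at 88.4 and 48.3 CPM at 8 h and 251 and 162 CPM at 24 h (log2 1.59 ± 0.28 (SE)). Gng7, a G protein subunit, Zfhx3, a transcription factor, Adamts10, a metalloprotease, and Jade2, a subunit of a histone acetyltransferase complex, rose by 1.61, 1.6, 1.58 and 1.40 on the log2 scale. The remaining 2, D630023F18Rik and 2900008C10Rik, rose by 1.67 and 1.47. Zfhx3 was not called without replicate 1 at 24 h or replicate 2 at 8 h (adjusted p = 0.12 and 0.11). Adamts10 was not called without replicate 1 at 24 h, replicate 1 at 8 h or replicate 2 at 8 h (adjusted p = 0.054, 0.061 and 0.059). Jade2 was not called without replicate 2 at 24 h or replicate 1 at 8 h (adjusted p = 0.055 and 0.06).

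The 10 largest falls of the interval included granule genes of immature neutrophils that had been called lower by 8 h. Mpo, myeloperoxidase, was at 351 and 27.1 CPM at 8 h and 0.540 and 0 CPM at 24 h, where the 24 h libraries held 5 and 0 counts; its fitted log2 change of -9.31 (adjusted p = 0.0074, or 0.056 in the 4-library fit) rests on those few counts and is no measure of size. Ctsg, cathepsin G, was at 309 and 159.6 CPM at 8 h and 17.5 and 8.54 CPM at 24 h (log2 -4.16 ± 0.39 (SE), adjusted p = 0.00071), and Ngp, a secondary granule protein, at 198 and 30.9 CPM at 8 h and 3.24 and 1.66 CPM at 24 h (log2 -5.52 ± 1.13 (SE)). In Mpo and Ngp the replicates at 8 h differed by more than 5-fold. In the list of primary granule and early neutrophil genes 3 of 14 were called lower in this step and 12 had been called by 8 h. The count was 5 without replicate 1 at 24 h, 1 in the 4-library fit and 8 with the replicate block within 8 h and 24 h that was chosen after seeing the data. Tnfrsf9 (4-1BB), a TNF receptor, was at 25.7 and 56.2 CPM at 8 h and 2.16 and 4.04 CPM at 24 h (log2 -3.73 ± 0.47 (SE)). Fabp5, a fatty acid binding protein, was at 14.7 and 11.3 CPM at 8 h and 1.62 and 1.07 CPM at 24 h (log2 -3.25 ± 0.76 (SE)), and Myo18b at 17.5 and 3.13 CPM at 8 h and 0.324 and 0.475 CPM at 24 h. Spp1, the secreted protein osteopontin, was at 12.9 and 45.1 CPM at 8 h and 1.40 and 2.97 CPM at 24 h (log2 -3.73 ± 0.99 (SE)). Ngp was not called without replicate 1 at 24 h or replicate 2 at 24 h (adjusted p = 0.053 and 0.055). Myo18b was not called without replicate 1 at 24 h or replicate 2 at 24 h (adjusted p = 0.1 and 0.072). Fabp5 was not called without replicate 1 at 24 h, replicate 2 at 24 h or replicate 1 at 8 h (adjusted p = 0.053, 0.062 and 0.051). Spp1 was not called without replicate 1 at 24 h, replicate 2 at 24 h or replicate 2 at 8 h (adjusted p = 0.13, 0.07 and 0.13).

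Interferon-stimulated genes had risen in the first step, 19 of 36, and 4 fell in the second, a share near the 12.0% of all genes; 1 or fewer of them did with any 1 library left out. The 4-library fit called 4 of the 36 lower. The replicate block within 8 h and 24 h, chosen after seeing the data, called 8 of the 36 lower. Cxcl10, a chemokine, was at 2.53 and 22.6 CPM at 8 h and 0.108 and 0.119 CPM at 24 h. With 1 and 1 counts at 24 h, its fitted log2 change of -6.61 (adjusted p = 0.019) is no measure of size. Its 8 h libraries also lay far apart. Cmpk2, a nucleotide kinase, was at 109.6 and 117 CPM at 8 h and 47 and 42.7 CPM at 24 h (log2 -1.34 ± 0.34 (SE)). Its 24 h libraries were above both 0 h libraries (23.8 and 20.5 CPM at 0 h). Cxcl10 was not called without replicate 1 at 24 h, replicate 2 at 24 h or replicate 2 at 8 h (adjusted p = 0.09, 0.072 and 0.1). Cmpk2 was not called without any 1 of the 4 libraries (adjusted p = 0.058 to 0.083).

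Markers of other blood lineages were checked in the same libraries. Of 10 megakaryocyte markers 6 were tested. They summed to 195 and 475 CPM at 8 h and 97.8 and 346 CPM at 24 h, higher in replicate 2 at both times. Of 13 mast cell, basophil and eosinophil markers in the files 7 were tested and 2 fell, Cpa3 (mast cell carboxypeptidase) from 57.1 and 15.6 to 8.75 and 3.32 CPM and Mcpt8 (a basophil protease) from 6.68 and 3.13 to 1.19 and 0.119 CPM. Over that list the summed level was 159 and 123 CPM at 8 h and 111 and 172 CPM at 24 h. Of 18 erythroid markers 5 were tested and 1 fell. It was Hbb-b2, a beta globin gene, at 29.2 and 116 CPM at 8 h and 3.89 and 13.3 CPM at 24 h; its neighbour Hbb-bt had identical values, so their reads cannot be told apart. Cpa3 was not called without replicate 2 at 24 h or replicate 1 at 8 h (adjusted p = 0.09 and 0.11). Mcpt8 was not called without replicate 2 at 24 h or replicate 1 at 8 h (adjusted p = 0.13 and 0.17). The call of Mcpt8 was lost also with the replicate number as a block (adjusted p = 0.061). Hbb-b2 was not called without replicate 1 at 24 h or replicate 2 at 8 h (adjusted p = 0.058 and 0.054). The erythroid markers summed to 73.7 and 169 CPM at 8 h and 23.6 and 47 CPM at 24 h. The part of these cells in the results above was not tested. Malat1, a nuclear-retained RNA, rose from 631 and 482 to 1604 and 1133 CPM (log2 1.30 ± 0.20 (SE), adjusted p = 0.0034), and the mean length of the transcripts that counts came from was 3299 and 3469 bases at 8 h and 3569 and 3535 bases at 24 h. With each library's trend on length removed, 1039 genes were called higher and 1273 lower.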

How the data were processed

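RNA was measured by sequencing in 13 libraries, and the 10 of the A-485 time course (0, 8, 24, 48 and 72 h, 2 each) were analysed here; GMP, LSC and mAML, with 1 library each, were not used. The authors aligned reads to mm9 with STAR and estimated gene levels with RSEM, per the submitters' processing notes, which name no versions. According to the file headers, the deposited tables hold an expected count and a TPM value for each gene.

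The expected counts were rounded to whole numbers and tested with edgeR 4.0.16 (R 4.3.3): filterByExpr kept 11119 of 24328 genes, libraries were TMM-scaled, and 1 quasi-likelihood model of the 10 libraries gave each contrast, with Benjamini-Hochberg adjustment over all genes tested and a threshold of 0.05. Fold changes are on the log2 scale, and the SE was taken as the absolute log2 change over the square root of the F statistic. A fitted fold of a gene with few counts depends on edgeR's prior count. TPM (as log2 of TPM plus 1) was used only for the limma 3.58.1 alternative, DESeq2 1.42.0 was another, and counts shared by near-identical genes (Hbb-bt and Hbb-b2, the Pira family, ribosomal proteins) are uncertain.

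Genes named were fixed cell cycle and leukemia genes, the 10 largest rises and falls at 10 CPM or more with no overlap between the times, the same for genes changed after the first 8 h, and up to 4 genes with the smallest adjusted p in each list; Wnt2, Susd5, Foxc1 and Elane were named after their values were seen. Some genes that the rule picks are not reported here. The members, lists and rule were chosen with earlier results of these data known. The procedure was tested on simulated data. Totals of 6467764 to 9763276 counts per library, and 2 libraries per time, limit the precision. Replicate numbers were not taken as pairs. Promoter windows came from RefSeq tables of GRCm38.p6, matched by symbol.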

Additional observations from a re-analysis of the deposited data

How the results depend on the processing

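The counts of genes called higher and lower from 8 h to 24 h (1082 and 1332) stayed within 1.5 times under RLE scaling, library sizes alone, DESeq2, limma on log2(TPM + 1), no filter on low counts, removal of the length trend with or without the replicate block, and the replicate block itself (1027 and 1265). Only the 8 h and 24 h libraries gave 184 and 325, and leaving out 1 library gave 656 to 883 higher and 838 to 1086 lower. Same-numbered libraries deviated together at 8 h and 24 h (correlation 0.644). Both times deviated in the opposite way to 72 h (-0.402 and -0.408). At 72 h Wnt2 was at 20.9 CPM in replicate 1 and 1.08 CPM in replicate 2. The other pairs of times gave 0.024 to 0.151. As the replicate numbers did not match over the whole course, they were not taken as pairs. The pairing seen at 8 h and 24 h was left out of the main fit and the fit of only those libraries. A replicate block within 8 h and 24 h alone, chosen after seeing the data, gave 1642 higher and 1734 lower. For the difference of the steps (1310 higher, 1256 lower), the lower count was 2622 with library sizes alone, 2665 with limma and 742 with the 3 times alone, and leaving out 1 library gave 612 to 1409 and 353 to 1322. Genes changed after the first 8 h (148 higher, 398 lower) were 33 and 149 with the 3 times alone, and 43 to 142 and 126 to 356 with 1 library left out. From 0 h to 8 h, library sizes alone gave 4078 higher and 1520 lower and limma 4859 and 1358, while leaving out 1 library gave 1198 to 1844 and 1504 to 2101. From 0 h to 24 h, library sizes alone gave 4175 higher and limma 5105 higher and 1600 lower, while leaving out 1 library gave 1799 to 2320 and 2032 to 2725. Beyond fewer samples in the fits that leave libraries out, the cause of these differences was not tested. Of the 132 genes given with a call, all kept their direction under the 14 alternatives each had, 83 kept the call in all of them and 23 lost it with 1 library left out. Many of the 132 genes were named for a small adjusted p or a large change in these same libraries. Their kept direction is therefore no further support. In the fit of only the 8 h and 24 h libraries 42 of the 132 lost the call (adjusted p = 0.0506 to 0.157). Cdkn1a, Cdkn1b, Ccnd3, Foxm1, Ccnb1, Aurkb, Mki67, Kit and Mpo were among them. The counts of 34 of 39 gene lists moved by more than 1.5 times in that fit. Among the 10 genes given without a call, the sign of the log2 change turned with 1 library left out in Cdk6 (-0.032 to 1.05), Crebbp (-0.0498 to 0.214), Hoxa9 (-0.053 to 0.62), Meis1 (-0.0088 to 0.845) and Wnt2 (-5.94 to 5.41), in Crebbp also with the length trend removed (-0.082, and -0.083 with the replicate block), and in Wnt2 also in limma (-0.048) and with the block within 8 h and 24 h (-0.035).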
